A study of Mus musculus with 12 samples.

Results

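The levels of 10 endothelial and angiogenic genes were followed in scWAT, the white adipose tissue under the skin. They were Pecam1, Cdh5 and Esam, which encode proteins of the contacts between endothelial cells, the VEGF receptors Kdr and Flt1, the receptor Tek with its ligands Angpt1 and Angpt2, and Vwf and Emcn. The genes form a list of symbols with no threshold on their levels, drawn up with earlier results of these data known, and each matched a single gene ID among the 55401 IDs in the count files. All 10 had enough reads to be tested.

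RNA-seq was done on 12 libraries of scWAT from female mice that were 16 weeks old when the treatment began. Wild-type mice (Jmjd1a +/+) and Jmjd1a HY/HY mice, called HY/HY mice from here on, were all acclimated to 30°C for 1 week. For 1 further week they stayed at 30°C, at which mice need no extra heat production, or were moved to 8°C, which gave 4 groups of 3 libraries. The HY/HY mice carry the H1122Y substitution on both alleles, in every tissue, which was made by genome editing in C57BL/6J eggs and inactivates the histone demethylase JMJD1A. The study made 2 lines of HY/HY mice and took its female mice from line 1, so the HY/HY libraries stand for a single line. The 2 questions of the design are how scWAT responds to cold and how that response differs without the demethylase activity.

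Endothelial cells line the blood vessels. They are held together by VE-cadherin, the product of Cdh5, and by PECAM1 and ESAM. VEGF-A acts through KDR, its main signalling receptor, while FLT1 binds the same ligand tightly and acts in part as a decoy. TEK, also called TIE2, is activated by angiopoietin-1, which comes mainly from the cells around the vessel, and angiopoietin-2, which endothelial cells store and release, often counters it. Von Willebrand factor, the product of Vwf, is made by endothelial cells and megakaryocytes and tethers platelets, and endomucin, the product of Emcn, is a sialomucin of capillaries and veins. White fat is richly supplied with capillaries, and the vessels of scWAT are known to grow when beige adipocytes form in the cold.

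RefSeq promoter windows on GRCm38.p6, from 250 bases before to 50 bases after the start of the transcript, were matched for 4 of the 10 genes. These are the 4 genes for which a window was available. Among them Kdr and Emcn rose in the cold in wild-type mice, whereas Flt1 and Tek did not pass the test. Pecam1 and Cdh5, which also rose, had no window. The windows are chr5:75978406-75978705 on the minus strand for Kdr, chr3:137340828-137341127 on the plus strand for Emcn, chr5:147725962-147726261 on the minus strand for Flt1 and chr4:94739039-94739338 on the plus strand for Tek. The Kdr and Flt1 windows lie inside the spans of these genes, which end at 75979072 and 147726438. The Emcn and Tek windows begin fewer than 250 bases before the spans of these genes, which start at 137341062 and 94739086. The starts used for all 4 genes thus lie inside the spans and are not the outermost ones. Each window is printed 5′ to 3′ on the strand of its gene. Capitals mark GGAAG or its reverse complement CTTCC, the core that ETS factors bind.
Kdr: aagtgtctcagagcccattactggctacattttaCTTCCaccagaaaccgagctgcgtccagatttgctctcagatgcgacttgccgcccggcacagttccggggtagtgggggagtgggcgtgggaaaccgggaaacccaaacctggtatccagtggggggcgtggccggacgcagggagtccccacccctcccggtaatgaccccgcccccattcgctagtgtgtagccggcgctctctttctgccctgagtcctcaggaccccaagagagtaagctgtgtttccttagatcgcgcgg
Emcn: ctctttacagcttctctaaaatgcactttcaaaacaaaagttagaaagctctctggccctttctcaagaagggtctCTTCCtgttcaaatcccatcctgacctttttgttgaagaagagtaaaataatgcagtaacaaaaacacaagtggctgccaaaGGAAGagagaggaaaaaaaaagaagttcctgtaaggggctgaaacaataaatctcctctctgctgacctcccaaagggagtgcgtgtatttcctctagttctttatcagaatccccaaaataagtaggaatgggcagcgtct
Flt1: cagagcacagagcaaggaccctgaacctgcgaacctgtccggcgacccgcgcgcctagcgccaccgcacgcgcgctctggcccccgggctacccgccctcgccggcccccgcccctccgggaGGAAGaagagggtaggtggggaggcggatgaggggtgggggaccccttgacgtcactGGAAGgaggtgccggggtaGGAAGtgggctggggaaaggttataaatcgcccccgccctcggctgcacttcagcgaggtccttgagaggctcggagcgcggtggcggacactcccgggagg
Tek: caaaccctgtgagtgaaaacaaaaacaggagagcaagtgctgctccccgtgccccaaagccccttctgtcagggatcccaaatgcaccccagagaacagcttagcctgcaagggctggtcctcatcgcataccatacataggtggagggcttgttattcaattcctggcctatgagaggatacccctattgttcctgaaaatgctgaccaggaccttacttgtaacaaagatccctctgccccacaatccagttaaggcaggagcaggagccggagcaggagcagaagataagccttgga
The letters GGAAG were searched on both strands and were found in 71.4% of 32851 windows of the same length. The Kdr window held 1 match, at position -216 from the start, Emcn held 2, at -174 and -92, Flt1 held 3, at -128, -71 and -52, and Tek held 0. The forkhead core TGTTT, found in 50.5% of all windows, had 1 match in Kdr, 2 in Tek, 3 in Emcn and 0 in Flt1. The letters TATAAA of the TATA box, found in 13.6% of windows, were present in Flt1 at -31 and in none of the other 3, and the GATA motif AGATAA, found in 11.2%, was present only in Tek, at 36. The core of the hypoxia response element, ACGTG, found in 19.6% of windows, was absent from these 4. No match overlapped another.

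The libraries held from 13592629 to 26352081 counts on the sense strand, and the libraries from the cold were the smaller ones without exception. Kdm3a, the gene that encodes JMJD1A, lay between 35.6 and 61.6 CPM (counts per 1000000, on library totals scaled by TMM) and did not pass the test between the genotypes (adjusted p = 0.604 at 8°C and 0.753 at 30°C); its level is no check of a substitution. White adipocyte genes were abundant in all libraries, with a sum of 5840 to 15119 CPM over 6 genes. Of 7 marker genes of beige adipocytes, 7 were higher at 8°C in wild-type mice and 3 in HY/HY mice. One library, wild-type at 30°C replicate 2, held 1091 CPM summed over 5 skeletal muscle genes, against 2.82 to 20.1 CPM in the other 11. The sum of 6 genes of mammary epithelium was 2045 to 3678 CPM in the wild-type libraries at 30°C and 526.4 to 1511 CPM in the other groups, and that of 4 erythrocyte genes was 70.8 to 185.9 CPM there and 183.1 to 245.0 CPM in wild-type mice at 8°C.

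Cold raised 4 of the 10 genes in wild-type mice, namely Kdr, Cdh5, Pecam1 and Emcn, and no gene of the 10 was called in any of the other 4 comparisons. A gene was called when it changed by more than 1.5-fold up, or to below 0.67 of its level, with an adjusted p under 0.05. The interaction was called on its adjusted p alone. Of all 16540 genes tested, 17.3% passed both limits by cold in wild-type mice and 10.3% were called higher, beside the 4 of 10, all of them higher. The libraries of wild-type mice at 8°C lay apart from those at 30°C for 5 of the 10 genes, which is close to the 43.4% of all genes whose groups did not overlap. The median log2 fold change of the 10 genes was 0.34 and that of all genes was -0.07, and 8 of the 10 had a positive value.

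In HY/HY mice cold gave 0 called genes among the 10, where 0.248% of all genes were called. The median log2 fold change of the 10 was 0.03, and the groups lay apart only for Esam, against 18.3% of all genes. By genotype, 0 of 10 were called at 8°C (5.93% of all genes) and 0 at 30°C (1.00% of all genes), with median log2 fold changes of -0.16 and 0.32. The genotypes did not overlap for 4 of 10 at 8°C, where 35.4% of all genes lay apart, and for 2 of 10 at 30°C, where 18.3% did. The interaction, which is the cold response in HY/HY mice minus that in wild-type mice, was called for 0 of 10 and for 2.24% of all genes. So the rise in wild-type mice was not shown to differ from the response in HY/HY mice for any of the 10, although the interaction was negative for 8 of them, with a median of -0.52. At an unadjusted p under 0.05, edgeR found 1 of the 10 by cold in HY/HY mice, 0 by genotype at 8°C, 2 at 30°C and 3 for the interaction, and DESeq2 found 1, 3, 2 and 4, with 0 called in each.

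**Figure D1:**
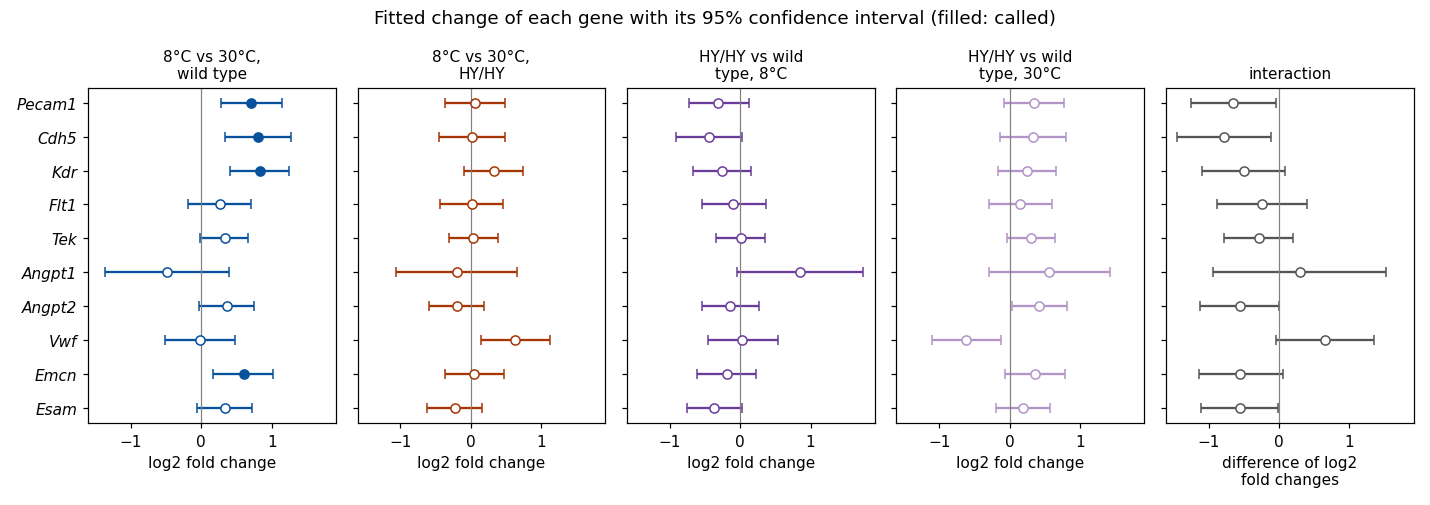
Fitted log2 fold change of each of the 10 genes on the horizontal axis, with its 95% confidence interval, in the 4 comparisons and the interaction (a difference of log2 fold changes), with filled points for called genes. Filled points stand only in the first panel, at 0.71 for Pecam1, 0.81 for Cdh5, 0.83 for Kdr and 0.60 for Emcn, and the intervals of Angpt1 are the widest.

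These calls depended on the scaling and on single libraries. With library totals in place of TMM, which moved the median of all genes to -0.41, cold called 0 of the 10 genes in wild-type mice, and the median of the 10 was 0.01, with Flt1 turning from 0.26 to -0.06. Measured from the median of all genes, the changes hardly moved, from 0.90 to 0.92 for Kdr, from 0.87 to 0.89 for Cdh5, from 0.78 to 0.79 for Pecam1 and from 0.67 to 0.68 for Emcn. Without the library that held muscle RNA, only Kdr was called (log2 fold change 0.75, adjusted p = 0.0434), and Cdh5 stood at 0.60 (adjusted p = 0.0639), Pecam1 at 0.52 (adjusted p = 0.0734) and Emcn at 0.43 (adjusted p = 0.151). Only Kdr was called also without wild-type at 8°C replicate 1 or without replicate 2 of that group. The summed level of the 10 genes was 614.5 CPM in the library with muscle RNA and 855.5 and 930.6 CPM in the other wild-type libraries at 30°C, against 1036 to 1355 CPM at 8°C. Whether the muscle RNA or the mammary epithelium, which was also higher in wild-type mice at 30°C, took part in the difference was not tested; 4 of the 5 muscle genes and 1 of the 6 mammary genes, Epcam, were called lower at 8°C. In bulk tissue, fewer endothelial cells and less of these RNAs per cell cannot be told apart.

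Per kilobase of exon, the 10 genes spanned a range from 65.5 CPM for Cdh5 to 2.16 CPM for Angpt2, as means over the 12 libraries. Pecam1 followed at 46.9, Esam at 36.5, Kdr at 21.0, Emcn at 10.9, Tek at 9.02, Flt1 at 8.43, Angpt1 at 3.52 and Vwf at 2.80 CPM per kilobase. The genes of cell contacts thus led the order and the angiopoietins stood near its end. Cdh5 lay above Pecam1 in 12 of 12 libraries, and Esam above Kdr and Kdr above Emcn likewise, whereas Tek lay above Flt1 in 9 and Angpt1 above Vwf in 7, and these last pairs changed places when the length of the longest transcript was used. Vwf lay above Angpt2 in 9 of 12 libraries. Over the 12 libraries the coefficient of variation was 46.7% for Angpt1, the most variable of the 10, and between 15.3% (Tek) and 28.8% (Kdr) for the others.

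Pecam1 (ENSMUSG00000020717.19, chromosome 11 from 106654213 to 106715281 on GRCm38.p6) was at 176.7, 110.3 and 177.0 CPM in the wild-type libraries at 30°C and at 275.2, 256.4 and 227.5 CPM at 8°C. The 3 libraries in the cold all lay above the 3 at 30°C, and the level rose 1.64-fold (log2 0.71, SE 0.20, adjusted p = 0.0225). The HY/HY libraries held 224.4, 164.8 and 200.2 CPM at 30°C and 223.4, 222.9 and 167.6 CPM at 8°C, groups that overlapped (log2 0.06, SE 0.20, adjusted p = 0.918). At 8°C each HY/HY library lay below each wild-type library, but the difference of -0.31 did not pass the test (adjusted p = 0.395), nor did the interaction of -0.65 (95% confidence interval -1.25 to -0.05, adjusted p = 0.294).

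Cdh5 (ENSMUSG00000031871.9, chromosome 8 from 104101613 to 104144504), which encodes the adhesive cadherin of endothelial cells, was called beside Pecam1. It was at 221.4, 136.3 and 235.0 CPM in wild-type mice at 30°C and at 407.5, 341.2 and 287.1 CPM at 8°C, without overlap, a 1.75-fold rise (log2 0.81, SE 0.22, adjusted p = 0.0199). The HY/HY libraries held 285.4, 212.5 and 248.2 CPM at 30°C and 255.2, 289.0 and 211.9 CPM at 8°C, with means of 248.7 ± 36.5 and 252.0 ± 38.6 CPM (SD, n = 3). The interaction was -0.79 (SE 0.30, adjusted p = 0.243), the most negative of the 10. Esam (ENSMUSG00000001946.14, chromosome 9 from 37528089 to 37538319), the third gene of cell contacts, was not called: it was at 93.9, 68.7 and 125.7 CPM in wild-type mice at 30°C and at 116.0, 128.4 and 117.3 CPM at 8°C (log2 0.33, adjusted p = 0.198). Esam in HY/HY mice was at 115.7, 97.4 and 115.1 CPM at 30°C and at 97.4, 97.2 and 84.3 CPM at 8°C, where every library lay below those at 30°C by a small margin (log2 -0.23, adjusted p = 0.579).

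Kdr (ENSMUSG00000062960.10, chromosome 5 from 75932827 to 75979072) had the smallest p of the 10 genes. The wild-type libraries held 109.6, 99.6 and 128.3 CPM at 30°C and 258.2, 191.9 and 150.1 CPM at 8°C, and the level rose 1.78-fold (log2 0.83, SE 0.19, adjusted p = 0.00940). Kdr in HY/HY mice was at 130.4, 127.2 and 141.4 CPM at 30°C and at 187.1, 179.2 and 134.9 CPM at 8°C, so that 2 of 3 libraries in the cold lay above those at 30°C (log2 0.33, SE 0.19, adjusted p = 0.451). The responses of the genotypes differed by -0.50 (95% confidence interval -1.09 to 0.08, adjusted p = 0.417).

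Flt1 (ENSMUSG00000029648.13, chromosome 5 from 147561604 to 147726438), the other VEGF-A receptor, did not pass the test in any comparison. It was at 88.5, 60.8 and 115.5 CPM in wild-type mice at 30°C, at 110.7, 114.3 and 91.7 CPM at 8°C, and between 84.1 and 120.9 CPM in the 6 HY/HY libraries. The libraries of all 4 groups overlapped. Its log2 fold change by cold in wild-type mice was 0.26 (SE 0.21, adjusted p = 0.385).

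**Figure D2:**
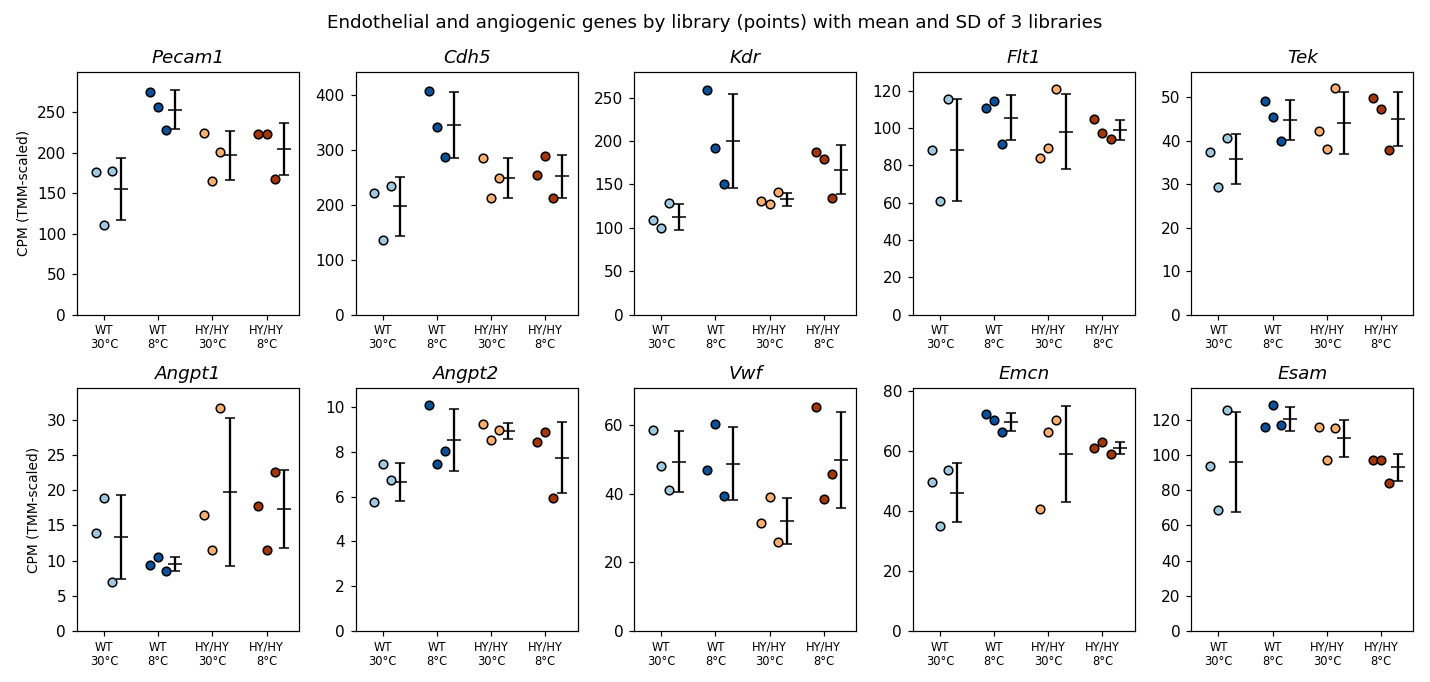
CPM of each of the 10 genes (vertical axes, from 0) in every library, by genotype and temperature, with the mean and SD of 3 libraries beside the points. Pecam1, Cdh5, Kdr and Emcn were higher in every wild-type library at 8°C than in every one at 30°C, whereas Angpt1 ranged from 7.01 to 31.6 CPM with wide overlap.

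Tek (ENSMUSG00000006386.15, chromosome 4 from 94739086 to 94874976), the angiopoietin receptor, was at 37.4, 29.5 and 40.7 CPM in wild-type mice at 30°C and at 49.1, 45.6 and 40.0 CPM at 8°C (log2 0.33, SE 0.16, adjusted p = 0.150). The 6 HY/HY libraries lay between 38.0 and 52.1 CPM. The genotypes had nearly the same mean in the cold, 44.9 ± 4.58 CPM in wild-type and 45.1 ± 6.22 CPM in HY/HY mice (SD, n = 3), with a 95% confidence interval of the log2 difference from -0.34 to 0.35.

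Its ligand Angpt1 (ENSMUSG00000022309.9, chromosome 15 from 42424667 to 42676977) varied widely between libraries of a group. It was at 13.9, 18.9 and 7.01 CPM in wild-type mice at 30°C, at 9.43, 10.5 and 8.59 CPM at 8°C, at 16.5, 11.5 and 31.6 CPM in HY/HY mice at 30°C and, in the cold, at 17.7, 11.5 and 22.5 CPM. At 8°C all HY/HY libraries lay above all wild-type libraries, but the difference of 0.85 (SE 0.41) did not pass the test (adjusted p = 0.244). With only the 6 libraries at 8°C in the model, in which the spread is estimated without the libraries at 30°C, Angpt1 was called (log2 0.87, adjusted p = 0.0355). Over the 20 alternative fits of this comparison the log2 fold change ranged from 0.62 to 1.08 and the adjusted p from 0.0355 to 0.533.

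Angpt2 (ENSMUSG00000031465.6, chromosome 8 from 18690263 to 18741562), the lowest of the 10, was at 5.75, 7.46 and 6.74 CPM in wild-type mice at 30°C and at 10.1, 7.46 and 8.01 CPM at 8°C. The ranges met at 7.46 CPM to the digits given and did not cross, and the log2 fold change was 0.36 (SE 0.18, adjusted p = 0.173). The HY/HY libraries had 9.25, 8.53 and 8.98 CPM at 30°C and 8.41, 8.87 and 5.92 CPM at 8°C. At 30°C each HY/HY library lay above each wild-type library (log2 0.42, SE 0.18, adjusted p = 0.237).

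The ratio of Angpt2 to Angpt1 counts within a library does not depend on how libraries are scaled. It was 0.413, 0.395 and 0.962 in wild-type mice at 30°C and 1.07, 0.708 and 0.933 at 8°C, and 0.562, 0.745 and 0.285 in HY/HY mice at 30°C and, in the cold, 0.475, 0.772 and 0.264. The groups overlapped in every comparison. The log2 ratio differed by 0.72 by cold in wild-type mice and by -0.96 between the genotypes at 8°C, which the spread between libraries could give (two-sided exact permutation p = 0.3 and 0.2, where 0.1 is the smallest p that 3 against 3 allows). By cold in HY/HY mice and by genotype at 30°C the differences were -0.10 and -0.13 (exact permutation p = 0.8 and 0.9), and adjusted over these 4 comparisons the values of p were 0.6 or higher.

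Emcn (ENSMUSG00000054690.17, chromosome 3 from 137341062 to 137431069) was at 49.6, 34.9 and 53.7 CPM in wild-type mice at 30°C and at 72.3, 70.2 and 66.3 CPM at 8°C, a 1.51-fold rise close to the limits (log2 0.60, SE 0.19, adjusted p = 0.0433). Emcn in HY/HY mice was at 40.7, 66.2 and 70.2 CPM at 30°C and at 61.1, 63.1 and 59.0 CPM at 8°C. Replicate 1 at 30°C was low and the others were at the level of the cold (log2 0.05, SE 0.19, adjusted p = 0.931). At 8°C the HY/HY libraries lay just below those of wild-type mice (log2 -0.19, adjusted p = 0.622).

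Vwf (ENSMUSG00000001930.17, chromosome 6 from 125552948 to 125686679) was not called in any comparison. In wild-type mice it was at 58.6, 48.0 and 41.0 CPM at 30°C and at 46.7, 60.2 and 39.2 CPM at 8°C (log2 -0.02, SE 0.23, adjusted p = 0.969). In HY/HY mice it was at 31.3, 39.0 and 25.8 CPM at 30°C, below every wild-type library at that temperature, and at 65.3, 38.4 and 45.7 CPM at 8°C. Neither the genotype difference at 30°C (log2 -0.62, SE 0.23, adjusted p = 0.181) nor the cold difference in HY/HY mice (log2 0.63, SE 0.23, adjusted p = 0.236) passed the test. Genes of platelets and megakaryocytes, which also make Vwf RNA, were low in all groups, with a sum over 6 genes of 13.3 to 31.0 CPM, Gp1bb at 0 in every library, and 0 of 3 tested genes called, and their part in the level of Vwf was not tested.

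To compare the genes with the endothelium as such, each level was set against the mean log2 level of 9 other endothelial genes of the same library, namely Tie1, Cldn5, Eng, Egfl7, Erg, Robo4, Clec14a, Mmrn2 and Icam2. This mean was 5.68 ± 0.38 and 6.26 ± 0.06 in wild-type mice at 30°C and 8°C and 5.90 ± 0.22 and 5.77 ± 0.23 in HY/HY mice (log2 CPM, SD, n = 3). Such a ratio shows unequal change and not which of the genes changed. In wild-type mice the cold groups lay apart for 3 of the 10 genes, all lower against the reference, by -0.28 for Flt1, -0.25 for Tek and -0.21 for Esam. Of all genes tested, 58.6% lay apart on this scale and 53.0% were apart and lower, so the 3 of 10 stayed under the share of all genes. The 4 genes that were called, Pecam1, Cdh5, Kdr and Emcn, overlapped on this scale, with differences of 0.16, 0.25, 0.22 and 0.03.

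In HY/HY mice the cold groups lay apart for Kdr (0.44), Pecam1 (0.19) and Cdh5 (0.15), all higher against the reference at 8°C, where 11.6% of all genes lay apart and 9.18% were apart and higher. Between the genotypes at 8°C, 6 of the 10 genes were apart and higher in HY/HY mice, close to the 57.2% of all genes that were so, with 60.9% apart in either direction. The 6 were Angpt1 (1.29), Tek (0.49), Flt1 (0.40), Angpt2 (0.34), Emcn (0.30) and Pecam1 (0.17). Tek was at -0.70, -0.75 and -0.87 in the wild-type libraries and at -0.25, -0.35 and -0.25 in the HY/HY libraries. At 30°C 0 of the 10 were apart, against 9.61% of all genes. Each of these 12 differences had the smallest p that 3 against 3 allows (two-sided exact permutation p = 0.1), which became 0.333 after adjustment over the 40 comparisons, so none passed. Among the 9 reference genes themselves Icam2 rose by cold in wild-type mice (log2 1.04, adjusted p = 0.0106), and Icam2 (-0.94, adjusted p = 0.0391) and Egfl7 (-0.58, adjusted p = 0.0457) were lower in HY/HY than in wild-type mice at 8°C. These 2 genotype calls held in 12 and 5 of 20 alternative fits, and both were lost with library totals.

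**Figure D3:**
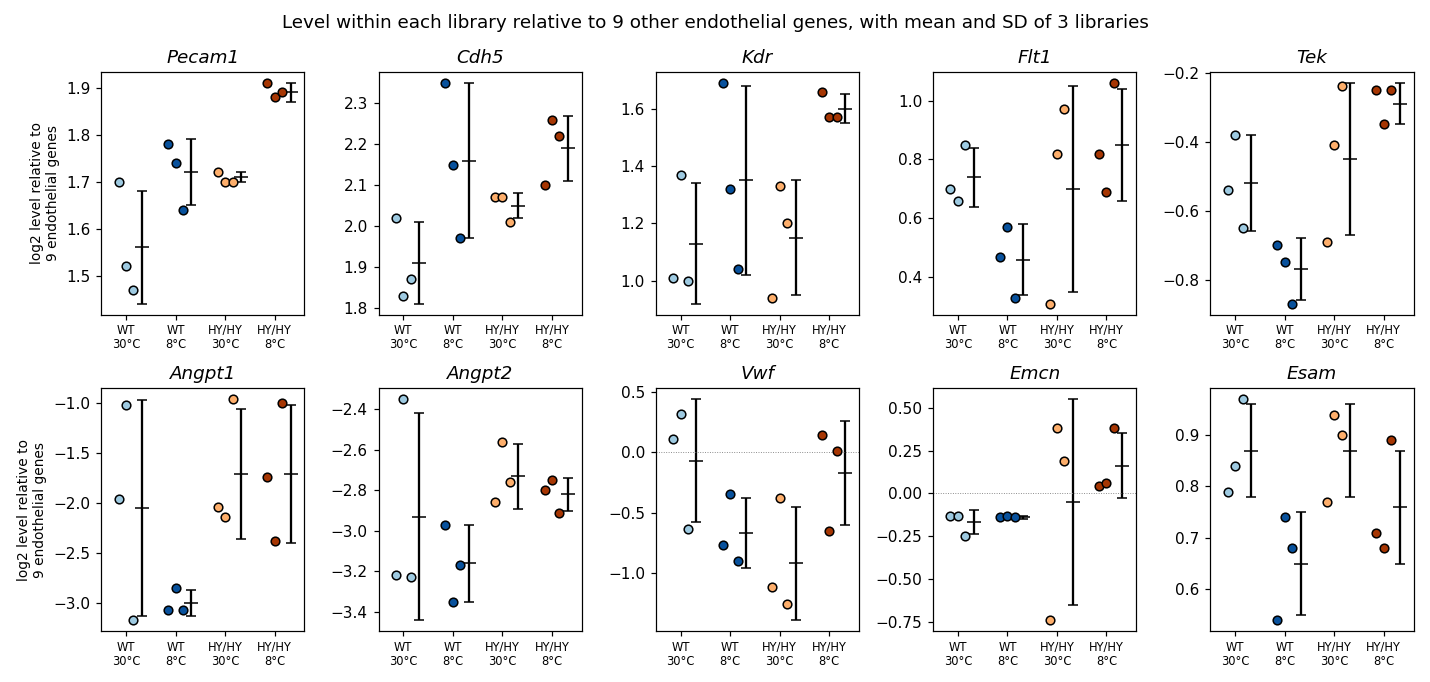
Log2 level of each of the 10 genes relative to the mean of 9 other endothelial genes in the same library (vertical axes, not starting at 0), by group, with the mean and SD of 3 libraries. Tek lay at -0.87 to -0.70 in the wild-type libraries at 8°C and at -0.35 to -0.25 in HY/HY mice at 8°C, while Pecam1 stayed between 1.88 and 1.91 in the latter.

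Apart from Icam2, the reference genes had log2 fold changes by cold in wild-type mice of 0.12 (Robo4), 0.31 (Egfl7), 0.36 (Erg), 0.41 (Mmrn2), 0.45 (Tie1), 0.52 (Eng) and 0.54 (Clec14a), and Cldn5, which seals endothelial junctions, stood at 1.18 with an SE of 0.53. The adjusted p of these genes was between 0.0919 and 0.714. In HY/HY mice the 9 genes lay between -0.47 and 0.14 and 0 were called. Of 27 further endothelial genes tested, 5 rose by cold in wild-type mice, among them Cd93 (1.39), Cyyr1 (0.93), Adgrl4 (0.78) and S1pr1 (0.76), the receptor for sphingosine-1-phosphate. With Cd34 these are the 5, and 0 of the 27 were called in the other 4 comparisons. Without the library with muscle RNA 2 of these rises were called, Cd93 and Adgrl4, Aqp1 was called lower, and Rasip1 and Ecscr were called lower in HY/HY than in wild-type mice at 8°C, while with library totals cold called 2 of the 27 higher in wild-type mice and 3 lower.

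Of 8 genes of the VEGF system outside Kdr and Flt1, only Nrp2, a coreceptor, rose by cold in wild-type mice, from 36.1, 23.9 and 31.9 CPM to 80.2, 56.0 and 66.1 CPM (log2 1.14, SE 0.20, adjusted p = 0.00189). Vegfa, the main ligand of Kdr, was at 282.7, 250.8 and 305.4 CPM at 30°C and at 408.0, 374.1 and 423.1 CPM at 8°C in wild-type mice. This passed the test (log2 0.52, SE 0.14, adjusted p = 0.0196) but stayed under the fold limit of 1.5. Vegfa in HY/HY mice was at 219.3, 252.1 and 300.2 CPM at 30°C and at 266.7, 311.0 and 296.2 CPM at 8°C, below every wild-type library in the cold (log2 -0.46, adjusted p = 0.0683). The interaction was -0.34 for Vegfa (adjusted p = 0.447) and -0.81 for Nrp2 (adjusted p = 0.180). At 8°C Nrp2 stood at -0.66 in HY/HY against wild-type mice (adjusted p = 0.0642) and was called lower without the library with muscle RNA. Vegfd, a ligand that also acts on lymphatic vessels, was higher in HY/HY than in wild-type mice at 8°C, at 22.2, 17.5 and 33.9 against 12.3, 13.9 and 13.8 CPM (log2 0.88, SE 0.24, adjusted p = 0.0441), a call that held in 11 of 20 alternative fits. Vegfb, Vegfc, Pgf, Flt4 and Nrp1 were not called in any comparison, with log2 fold changes by cold in wild-type mice from -0.00 (Vegfc) to 0.43 (Flt4 and Nrp1).

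Around Tek and the angiopoietins, 0 of 7 genes (Angpt4, Tie1, Ptprb, Svep1, Angptl1, Angptl2 and Angptl4) were called by cold in either genotype, and 1 was called by genotype. Angptl1, a secreted relative of the angiopoietins, was at 4.53, 3.37 and 4.54 CPM in HY/HY mice at 8°C and at 1.41, 1.73 and 1.60 CPM in wild-type mice (log2 1.38, SE 0.31, adjusted p = 0.0209), a call that held in 14 of 20 alternative fits. It was also higher in each HY/HY library at 30°C, without passing the test (log2 1.15, adjusted p = 0.0791). Tie1, the partner of Tek, stood at -0.64 in HY/HY against wild-type mice at 8°C and did not pass the test (adjusted p = 0.0543), but was called lower without the library with muscle RNA.

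Among 27 other factors that promote or restrain vessel growth, cold called 9 in wild-type mice, 7 higher and 2 lower. The largest changes were those of Ackr3 (1.85), a scavenger receptor for Cxcl12, of Apln (1.83), the peptide ligand of the apelin receptor, of Lep (-1.38), which adipocytes make, and of Fgf2 (-0.97). Pdgfd, Aplnr, Cxcl12, Col4a1 and Col4a2 were the other 5, all higher. Col4a1 and Col4a2 encode the chains of the collagen of vascular basement membranes. Without the library with muscle RNA 3 of the 9 were called, Ackr3, Pdgfd and Col4a2, and with library totals 3 were higher and 3 lower. Cold called 0 of the 27 in HY/HY mice.

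By genotype at 8°C 4 of these 27 were called and all were higher in HY/HY mice, namely Lep (1.99), Thbs2 (1.48), Igf1 (1.15) and Serpinf1 (1.10). These calls held in 15, 18, 16 and 15 of 20 alternative fits. Thbs2 and Serpinf1 encode secreted inhibitors of angiogenesis. Thbs2 was at 36.4, 40.8 and 55.1 CPM in HY/HY mice and at 15.3, 12.1 and 19.9 CPM in wild-type mice. Of 6 markers of fibroblasts 3 (Dpt, Dcn and Lum) and of 6 markers of macrophages 2 (Csf1r and Mrc1) were higher as well in HY/HY mice at 8°C. Their summed levels were 1426 to 2121 against 819.0 to 1007 CPM and 225.9 to 304.3 against 132.5 to 153.0 CPM. Among the fibroblast markers 1 had a negative log2 fold change (-0.70). Of 6 genes of white adipocytes, Lep among them, 6 had a positive value with a median log2 fold change of 0.92 and 2, Lep and Retn, were called, with a summed level of 9721 to 15119 against 5840 to 8054 CPM. At 30°C the fibroblast sums were 1335 to 2266 CPM in HY/HY against 1048 to 1161 CPM in wild-type mice. The macrophage sums were 191.8 to 340.4 against 180.9 to 189.1 CPM there, and 0 markers of either list were called. The part of these cell types in the differences was not tested. At 30°C Pdgfd (1.00) and Ackr3 (0.77) were higher in HY/HY mice, and 0 of the 27 were without the library with muscle RNA.

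Ackr3 and Pdgfd were the 2 genes of the vascular lists whose interaction was called. Ackr3 was at 8.87, 9.80 and 8.92 CPM in wild-type mice at 30°C and at 32.7, 33.6 and 33.4 CPM at 8°C, against 18.0, 15.4 and 13.6 CPM and 25.0, 22.0 and 21.0 CPM in HY/HY mice (interaction -1.32, SE 0.17, adjusted p = 0.00788). Pdgfd was at 6.75, 4.32 and 4.78 CPM and at 10.2, 11.4 and 9.29 CPM in wild-type mice, against 9.68, 10.1 and 11.8 CPM and 9.77, 10.3 and 7.70 CPM in HY/HY mice (interaction -1.15, SE 0.26, adjusted p = 0.0467). The call of Pdgfd held in 8 of 19 alternative fits, and not without the library with muscle RNA, and that of Ackr3 in 18 of 19.

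Few arterial, venous, lymphatic and mural genes were called. Of 13 genes of the Notch pathway and of arteries only Efnb2 rose by cold in wild-type mice (log2 0.78, adjusted p = 0.00922), and without the library with muscle RNA Heyl was called lower at 8°C in HY/HY mice, both against 30°C and against wild-type mice. The venous genes Ephb4 and Nr2f2 had log2 fold changes of 0.11 and -0.05 by cold in wild-type mice. Of 6 lymphatic genes 3 could be tested, and Lyve1 and Pdpn stood at 0.39 and 0.22 in this comparison. Without the library with muscle RNA 4 could be tested, and Mmrn1 was called higher by cold in wild-type mice. Of 12 genes of pericytes and vascular smooth muscle, 0 were called higher by cold in wild-type mice. Notch3, a receptor of mural cells, was called lower (log2 -0.67, adjusted p = 5.7e-04), against the sign of most of this list. Of the 12, 9 had a positive value, with a median log2 fold change of 0.40. This median was 0.36 without the library with muscle RNA and 0.06 with library totals. Without the library with muscle RNA Des, also of this list, was called lower in HY/HY than in wild-type mice at 8°C. Among 8 genes by which capillaries handle lipids, Fabp5 (2.03) and Rbp7 (1.91) rose by cold in wild-type mice, Tcf15 was lower in HY/HY mice at 8°C (-1.13, called in 16 of 20 alternative fits), and Fabp5 was higher in them at 30°C (1.70), a call that held in 9 of 20 alternative fits. Fabp5, which encodes a fatty acid binding protein, is also made by adipocytes and other cells. By cold in wild-type mice the median log2 fold change was 0.45 for the 9 reference genes, 0.25 for the further endothelial genes, 0.25 for the VEGF system, -0.13 for the genes around Tek and 0.53 for the other vessel growth factors, against -0.07 over all genes tested. Without the library with muscle RNA the first 2 were 0.25 and 0.07 and the genes around Tek were at -0.29. With library totals the 5 medians were 0.13, -0.07, -0.08, -0.46 and 0.20, against -0.41 over all genes.

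**Figure D4:**
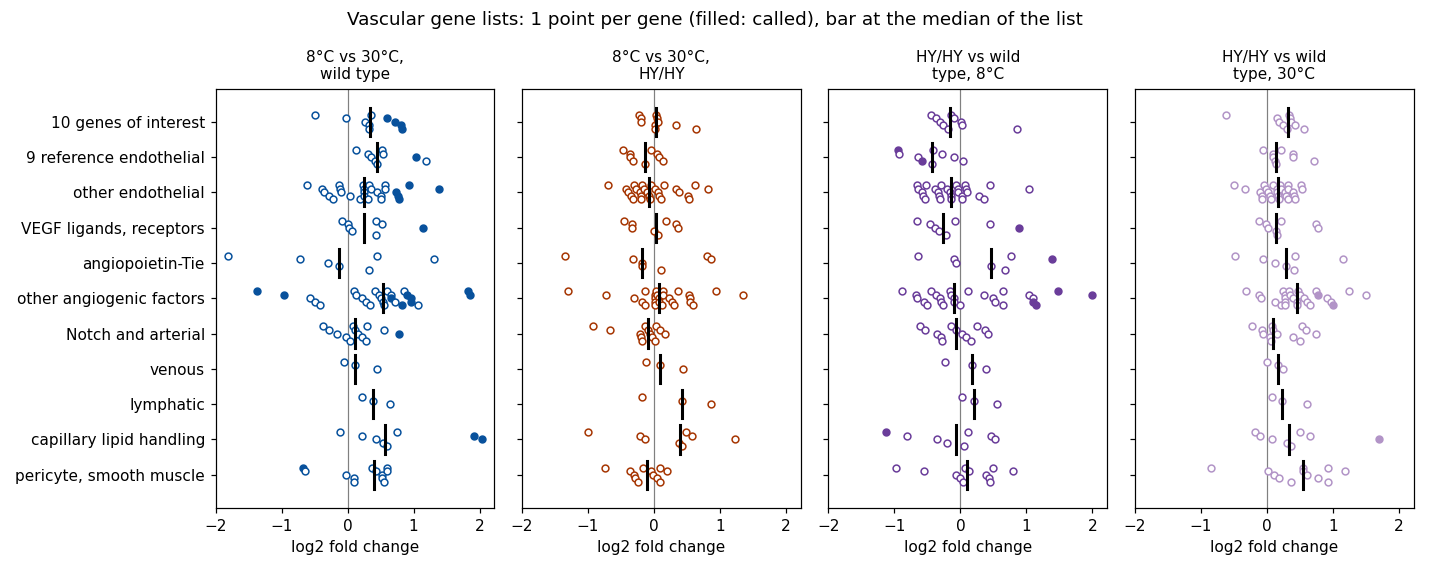
Log2 fold change (horizontal axis) of every tested gene of the 10 and of 10 lists of vascular genes in the 4 comparisons, with filled points for called genes and a bar at the median of each list. The median of the 10 genes was 0.34 by cold in wild-type mice and 0.03 in HY/HY mice, and filled points are absent from the second panel.

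Over the 12 libraries the genes closest to the mean of the 10, by Pearson correlation of log2 CPM, were Dgkh (r = 0.93), Dysf (0.92), Zfp366 (0.91), Fbxl7 (0.91) and Ppm1f (0.91). These values describe libraries that share their groups and library scaling. When the group means were taken out, Pecam1 and Cdh5 were the most alike (r = 0.96 over 12 libraries), followed by Flt1 with Tek (0.84), and Esam was most like Flt1 (0.83). Kdr was most like Tek (0.79), Emcn most like Flt1 (0.77) and Angpt2 most like Kdr (0.63). Vwf and Angpt1 stood apart, with no correlation above 0.08 and 0.05 with any of the others. Angpt1 was least like Esam (-0.48).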

How the data were processed

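RNA from scWAT of 12 libraries was sequenced in paired 50-base reads. The authors trimmed the reads with fastp, used STAR for alignment to mm10 and deposited, for each library, unnormalised counts per gene, with the annotation given as GENCODE M25. How the counting was done is not given in the sources used here. Counts of the sense strand were used, and entries that name no gene, 55.8% to 63.5% of the read pairs, were left out, among them pairs that aligned to several places. Analysis of the counts used edgeR 4.0.16 in R 4.3.3. filterByExpr kept 16540 of 55401 genes, libraries were scaled by TMM, and all 12 libraries entered the same quasi-likelihood fit in which each group had its own mean, with p adjusted over all genes by the Benjamini-Hochberg method. The script was tested on simulated data. IDs were matched to symbols (29944 with a symbol of their own), and lengths came from GENCODE M1. The sources do not say that each library is 1 mouse, so p-values measure the spread between libraries. Levels relative to other endothelial genes came from log2 CPM (prior count 2), and the ratio of angiopoietins used counts plus 0.5. These were compared by exact permutation tests. Precision is limited by counts from 73 upwards for the 10 genes and by 3 libraries a group. Alternatives were DESeq2 1.42.0, library totals, the replicate number as a block, other filters, strands and limits, and each library left out. The genes and lists were chosen with earlier results of these data known. Named beyond the 10 are the reference and VEGF lists in full, and from each other list at most 4 called genes with the largest change in a comparison, or the 2 with the highest level where none was called. Col4a1, Col4a2, Cxcl12, Aplnr, Cd34 and the angiopoietin list were named beyond this rule, after their values were seen, to complete their counts. Also beyond it, Aqp1, Rasip1, Ecscr, Heyl, Mmrn1 and Des were named because the fit without the library with muscle RNA called them. Rgs5 and Gp1bb were named for the values given with them.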

Additional observations from a re-analysis of the deposited data

Results flagged for a closer look

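The interaction term of the edgeR model was called for Ackr3 (-1.32), Pdgfd (-1.15), the beige adipocyte genes Cox7a1 (-3.78) and Ppargc1a (-2.19), and S100b (-3.28), a calcium-binding protein of Schwann cells that adipocytes also make. Over 19 alternative fits the call held in 19 for Cox7a1 and S100b, in 18 for Ackr3, in 9 for Ppargc1a and in 8 for Pdgfd. Each value is the log2 change in HY/HY mice minus that in wild-type mice. Rgs5, a marker of pericytes, was singled out because its libraries moved without overlap in opposite directions. In wild-type mice it was at 302.5, 189.9 and 273.2 CPM at 30°C and at 316.9, 398.3 and 317.6 CPM at 8°C, and in HY/HY mice at 427.6, 304.1 and 440.5 CPM at 30°C and at 184.5, 257.2 and 258.7 CPM at 8°C. Its interaction of -1.17 did not pass the test (adjusted p = 0.0700).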

How the results depend on the processing

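Of 990 recomputed log2 fold changes of the 10 genes, 971 kept their side of the limits, 18 lost a call, 1 gained one and 0 called values changed sign. Cold called 4 genes in wild-type mice, 0 with library totals in place of TMM and 1 to 4 with each library left out. Library totals also turned the split of all called genes from 1707 higher and 1147 lower to 1057 and 4133. With only the libraries of the comparison, 1 gene was called by genotype at 8°C, and all other counts in the other 4 comparisons were 0. Emcn lost its call without any of 8 libraries. With the replicate number as a block, cold called 4 genes in wild-type mice and 0 in the other comparisons, and it changed no call. Libraries with the same number correlated by -0.11 to 0.56 in their deviations from the group means, and 8 of 12 were nearest to their own number. For replicate 3 all 6 pairs lay between 0.19 and 0.56. The labels do not say what the number stands for, and the main fit did not take the numbers as pairs. Beyond the fit with the block, a structure shared by libraries of the same number was not tested. Relative to the endothelial reference, 12 of 40 comparisons lay apart, and 10 did with the median of the reference genes. With Pecam1 and Cdh5 as the reference 9 lay apart. These genes were then not compared themselves, so that count is over fewer than 40 comparisons. With a library left out 12 to 16 lay apart. Groups that lie apart stay apart when a library is removed, so this last count could not fall below 12.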
